A study of Mus musculus with 8 samples.

Results

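AMPA and kainate receptors are the glutamate-gated channels that carry most fast excitation between hippocampal neurons. The genes described here are the 9 that encode their core subunits, namely Gria1, Gria2, Gria3 and Gria4 for AMPA receptors and Grik1, Grik2, Grik3, Grik4 and Grik5 for kainate receptors. They were chosen by gene family and not by their measured values, although earlier results of these data were known. All 9 were among the 18865 genes tested, of 20802 in the deposited table. Hippocampal RNA was sequenced from 8 male C57BL/6 mice, labelled as PND28, with 4 mice in each group. In the Anesthesia group ketamine was given intraperitoneally at 35 mg per kg once a day on 5 consecutive days from PND16, and RNA was taken about 1 week later. The Control group was injected with normal saline in the same way according to the treatment protocol, although its sample titles read "Untreated-control". Ketamine blocks NMDA receptors, a different class of glutamate receptor, so AMPA and kainate receptors are not its main target. The study compared the groups to look for lasting changes in hippocampal gene expression after early repeated anesthesia.

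A native AMPA receptor is a tetramer, most often with Gria2 as a partner of Gria1 or Gria3, and Gria4 is known mainly from interneurons and immature circuits. Kainate receptors pair the low-affinity subunits Grik1, Grik2 and Grik3 with the high-affinity subunits Grik4 and Grik5, which form no working channel on their own. In the hippocampus Grik4 is best known from CA3, where mossy fibers from dentate granule neurons end. AMPA receptors need auxiliary subunits such as the TARPs (Cacng genes), cornichons (Cnih genes) and Shisa proteins, and kainate receptors need Neto1 and Neto2.

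One site in the pore loop, the Q/R site, sets how much calcium these channels pass. The genome encodes glutamine there, and the enzyme made from Adarb1 edits the codon to read as arginine, almost completely in Gria2 and in part in Grik1 and Grik2. The coding sequences around this codon are shown for the edited subunits and their close relatives, since the codon is nearly the same in all of them, 5′ to 3′ on the coding strand of the GENCODE M21 transcripts (GRCm38), with the Q/R codon in capitals and within the exon that holds it.
Gria1: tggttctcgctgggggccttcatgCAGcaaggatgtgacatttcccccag
Gria2: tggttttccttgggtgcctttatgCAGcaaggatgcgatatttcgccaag
Gria3: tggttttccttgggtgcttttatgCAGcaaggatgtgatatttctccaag
Gria4: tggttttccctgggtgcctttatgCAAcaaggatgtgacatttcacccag
Grik1: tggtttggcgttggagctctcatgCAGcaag
Grik2: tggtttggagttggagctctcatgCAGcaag
Grik3: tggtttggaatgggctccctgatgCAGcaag
The Gria2 stretch lies at chr3:80706888-80706937 on the minus strand, in exon 11 of 16, and that of Gria1 at chr11:57243070-57243119 on the plus strand, also in exon 11 of 16. Of 50 bases here, Gria2 shares 47 with Gria3 (chrX:41610241-41610290, plus strand, exon 11 of 16), 44 with Gria4 (chr9:4464114-4464163, minus strand, exon 12 of 17) and 41 with Gria1, with the codon itself being CAA in Gria4. The Grik1 stretch (chr16:87940538-87940568, minus strand, exon 12 of 17) and the Grik2 stretch (chr10:49244325-49244355, minus strand, exon 13 of 17) share 30 of 31 bases. Grik3 (chr4:125691183-125691213, plus strand, exon 12 of 16) shares 25 of 31 with Grik2. Gene-level values cannot show editing, nor the flip and flop splice forms of the AMPA subunits, so only the level of each mRNA was compared.

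The values are normalized counts, that is, estimated gene counts that the authors divided by a size factor for each library. They summed to between 18702634 and 19231119 per mouse, and the step between low values puts each library at approximately 15500000 to 22200000 assigned reads. Groups were compared with limma on log2(value + 1), with Benjamini-Hochberg adjustment of p-values over all genes tested. A log2 fold change (given ± SE, its standard error) is Anesthesia over Control, so a negative value means lower in the Anesthesia group. Markers of hippocampal neurons were present in every library, including Prox1 of dentate granule neurons at 957 to 2397 normalized counts. Libraries differed in tissue make-up. The summed choroid plexus markers were between 26473 and 66348 normalized counts in Anesthesia replicate 1 and Control replicates 2, 3 and 4, and between 453 and 3284 in the other 4 mice. Anesthesia replicate 3 had the highest or the lowest value of the 8 mice in 41.4% of all genes tested, the largest such share of any library. The difference of each subunit is given with and without it.

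None of the 9 subunit genes passed the threshold. In the limma comparison 0 of 9 had an adjusted p under 0.05, where 0.0% of all genes tested did (0 of 18865), and 0 of 9 had an unadjusted p under 0.05, against 8.02% of all genes tested (4.75% higher and 3.27% lower in the Anesthesia group, 1513 genes in all). The values of the groups overlapped for all 9, while 5.04% of all genes tested had groups that did not overlap. The median log2 fold change of the 9 genes was 0.06, with 6 of 9 higher in the Anesthesia group, beside a median of -0.004 and 49.2% higher over all genes tested. The 4 AMPA subunits had a median of 0.01 and the 5 kainate subunits of 0.11. In bulk tissue, a lower value can stand for fewer cells that use a gene or for less RNA per cell, and these cannot be told apart.

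**Figure D1:**
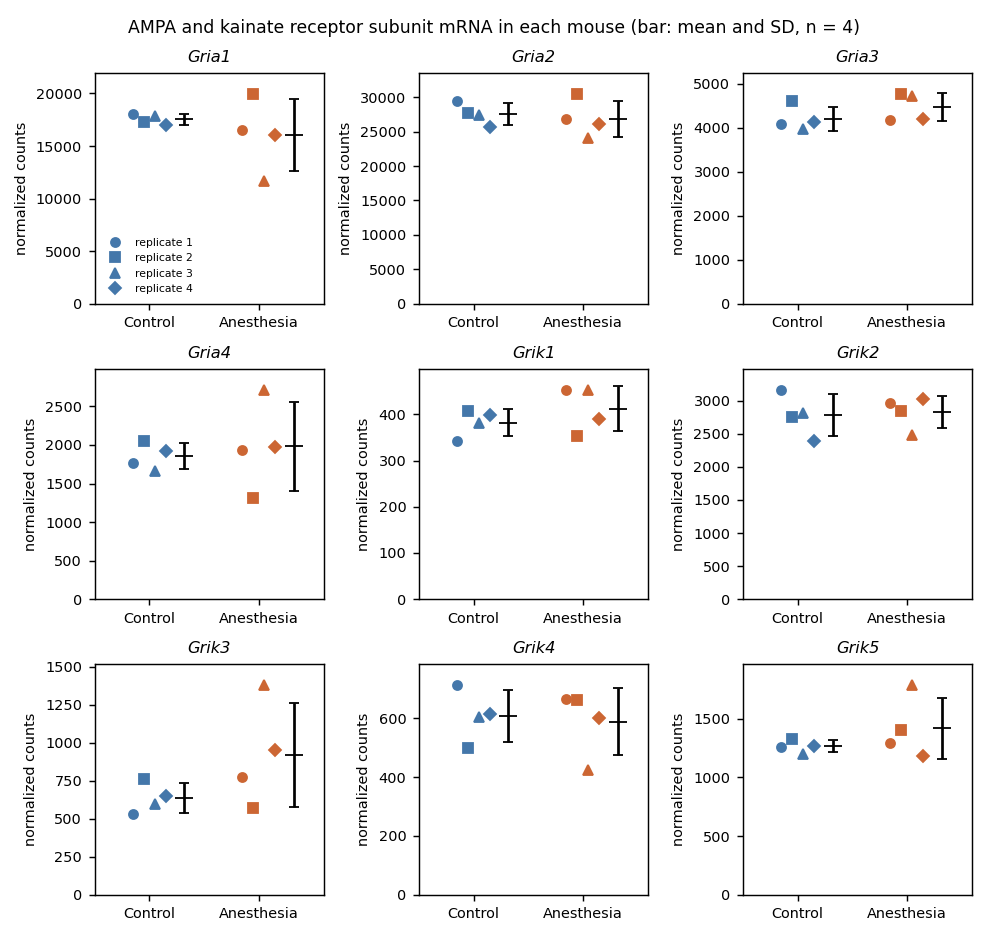
Normalized counts of each subunit gene (vertical axes, each from 0) in the 4 Control (blue) and 4 Anesthesia (orange) mice, with a marker shape for each replicate number and a bar for the mean and SD of each group. The groups overlap in all 9 panels, and Anesthesia replicate 3 (orange triangle) is lowest for Gria1, Gria2 and Grik4 and highest for Gria4, Grik1, Grik3 and Grik5.

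Gria1 and Gria2, the most abundant AMPA subunits, had close group means, and the Anesthesia mice spread further apart than the Control mice. Gria1 (ENSMUSG00000020524, chromosome 11, 57011387 to 57330244 on GRCm38) had 16547, 19934, 11661 and 16042 normalized counts in Anesthesia replicates 1 to 4, and 18065, 17262, 17862 and 16971 in Control replicates 1 to 4. The Control mice lay close together, and Anesthesia replicates 2 and 3 were the highest and the lowest of all 8. The mean ± SD of 4 mice was 16046 ± 3396 with ketamine and 17540 ± 510 with saline, and the log2 fold change was -0.15 ± 0.13 (SE, 95% confidence interval -0.44 to 0.13, limma adjusted p = 0.754). Without Anesthesia replicate 3 the log2 fold change was -0.009 (interval -0.18 to 0.16), and without Anesthesia replicate 2 it was -0.27 with an unadjusted p of 0.0326 in limma (adjusted p = 0.526).

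Gria2 (ENSMUSG00000033981, chromosome 3, 80681450 to 80802835), the subunit that makes AMPA receptors impermeable to calcium once edited, had 26797, 30445, 24022 and 26104 normalized counts in the Anesthesia mice. The Control mice had 29525, 27739, 27403 and 25671, a range that lies inside that of the Anesthesia group. The log2 fold change was -0.04 ± 0.07 (SE, interval -0.21 to 0.12, limma adjusted p = 0.884). As a fold, the interval for Gria2 mRNA ran from 0.865 to 1.09. Without Anesthesia replicate 3 the log2 fold change was 0.009.

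Gria3 (ENSMUSG00000001986, X chromosome, 41400854 to 41678601) was the AMPA subunit with the smallest p, and the steadiest of the 9 over all mice. It was between 4185 and 4762 normalized counts in Anesthesia mice and between 3977 and 4604 in Control mice. Ketamine over saline gave a log2 fold change of 0.09 ± 0.07 (SE, interval -0.06 to 0.24, limma adjusted p = 0.736). It was 0.06 without Anesthesia replicate 3. The SD of Gria3 over the 8 mice was 0.10 on the log2 scale, and 16.5% of all genes tested had a smaller one.

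Gria4 (ENSMUSG00000025892, chromosome 9, 4417896 to 4796234) was the AMPA subunit that varied most between mice. The Anesthesia mice had 1930, 1311, 2716 and 1976 normalized counts, and the Control mice 1771, 2051, 1665 and 1920. Anesthesia replicate 2 was the lowest and Anesthesia replicate 3 the highest of the 8, the reverse of Gria1. The log2 fold change was 0.06 ± 0.18 (SE, interval -0.33 to 0.45, limma adjusted p = 0.941), and it was -0.11 without Anesthesia replicate 3. The interval for Gria4 is wide, and differences of up to 1.36-fold higher or 0.793-fold lie within it.

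Among the kainate subunits, Grik3 had the largest difference of the 9 genes and the smallest p. Grik3 (ENSMUSG00000001985, chromosome 4, 125490700 to 125714173) had 773, 569, 1378 and 955 normalized counts in the Anesthesia mice and 532, 762, 598 and 653 in the Control mice. Anesthesia replicates 3, 4 and 1 were the 3 highest of the 8, and Anesthesia replicate 2 was the second lowest. The means were 918 ± 344 and 636 ± 97.5 (SD, n = 4 each), and the log2 fold change was 0.47 ± 0.23 (SE, interval -0.03 to 0.97). The unadjusted p was 0.0646 and the adjusted p 0.636 in limma, and 1889 genes ranked before it. Without Anesthesia replicate 3 the log2 fold change was 0.25 (interval -0.14 to 0.63), and without Anesthesia replicate 2 it was 0.67 (unadjusted p = 0.00471, adjusted p = 0.5, limma). A loess correction of every library for GC content and transcript length gave 0.32.

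Grik1 (ENSMUSG00000022935, chromosome 16, 87895900 to 88290265), which in the hippocampus is known mainly from interneurons, was the least abundant kainate subunit in normalized counts. It was between 353 and 453 in Anesthesia mice and between 342 and 407 in Control mice, a log2 fold change of 0.11 ± 0.10 (SE, limma adjusted p = 0.786), and 0.06 without Anesthesia replicate 3. Grik2 (ENSMUSG00000056073, chromosome 10, 49094833 to 49788766), a main subunit of mossy fiber kainate receptors, was between 2484 and 3022 in the Anesthesia group. It was between 2389 and 3165 in the Control group, which encloses the Anesthesia range. Its log2 fold change was 0.03 ± 0.09 (SE, interval -0.17 to 0.23, limma adjusted p = 0.944), 0.09 without Anesthesia replicate 3, and -0.01 after the correction for GC content and transcript length.

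The high-affinity subunits lay on opposite sides of the Control mean in Anesthesia replicate 3. Grik4 (ENSMUSG00000032017, chromosome 9, 42518135 to 42944493) had 666, 662, 424 and 601 normalized counts in the Anesthesia mice and 712, 500, 603 and 615 in the Control mice. The low value of Anesthesia replicate 3 decides its direction, since the log2 fold change was -0.06 ± 0.15 (SE, limma adjusted p = 0.931) with that mouse and 0.09 without it. It was also 0.02 without Control replicate 1, the highest of the 8 mice. Grik5 (ENSMUSG00000003378, chromosome 7, 25009849 to 25072346) had 1292, 1406, 1786 and 1187 in the Anesthesia mice and 1261, 1329, 1202 and 1267 in the Control mice. Here Anesthesia replicate 3 was the highest and Anesthesia replicate 4 the lowest of the 8. The log2 fold change of Grik5 was 0.15 (SE 0.11, limma adjusted p = 0.729), 0.03 without Anesthesia replicate 3, and 0.03 after the correction for GC content and transcript length.

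**Figure D2:**
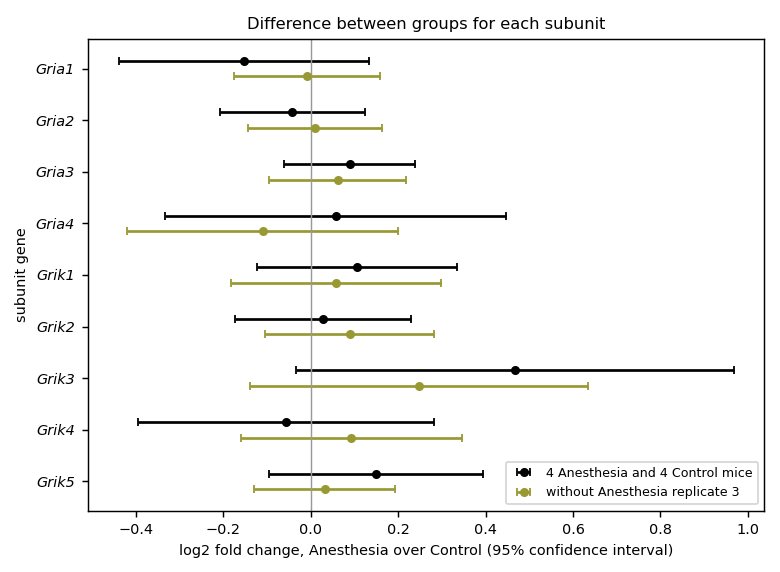
Log2 fold change of each subunit gene (horizontal axis, Anesthesia over Control) with its 95% confidence interval from limma, for all 8 mice (black) and without Anesthesia replicate 3 (olive). All 18 intervals include 0, and Grik3 goes from 0.47 to 0.25 when that mouse is left out.

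The spread between mice was larger in the Anesthesia group than in the Control group for 8 of the 9 subunits, beside 59.4% of all genes tested. The SD on the log2 scale was 0.32 against 0.04 for Gria1, a ratio of 7.65. For Grik5 it was 0.25 against 0.06, and for Gria4 0.43 against 0.13. Grik2 was the exception, with 0.13 in Anesthesia mice and 0.17 in Control mice. Without Anesthesia replicate 3, 7 of the 9 still had the larger SD in the Anesthesia group, beside 50.2% of all genes. Anesthesia replicate 2 stayed in, which had the highest or the lowest value of the 8 mice in 31.0% of all genes tested. The difference in spread was not tested.

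Anesthesia replicate 3 was the highest mouse for 4 subunits (Gria4, Grik1, Grik3 and Grik5) and the lowest for 3 (Gria1, Gria2 and Grik4), beside 20.3% and 21.0% of all genes tested. Anesthesia replicate 2 was the highest for Gria1, Gria2 and Gria3 and the lowest for Gria4, beside 16.1% and 15.0% of all genes tested. Relative to the Control mean, Gria1 stood at -0.59 on the log2 scale in Anesthesia replicate 3 and at 0.18 in Anesthesia replicate 2. Gria4 stood at 0.56 and -0.49 in the same mice, and Grik3 at 1.13 and -0.15.

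Markers of the dentate gyrus and CA3 also differed in these mice, and those of the neocortex in Anesthesia replicate 3. The median of 5 dentate granule neuron markers relative to the Control mean was 0.71 in Anesthesia replicate 2 and -0.56 in Anesthesia replicate 3, and between -0.44 and 0.46 in the other 6 mice. The median of 4 CA3 pyramidal neuron markers was 0.28 in Anesthesia replicate 2 and -0.72 in Anesthesia replicate 3, and between -0.29 and 0.23 in the others. The CA1 list differed less, with medians of 0.01 and 0.12 in these mice and -0.25 to 0.11 in the others. Of its 5 genes 2 were highest and 2 lowest in Anesthesia replicate 3. For 8 GABAergic interneuron markers the median was -0.20 in Anesthesia replicate 2, 0.03 in Anesthesia replicate 3 and -0.10 to 0.10 in the others. For 6 genes high in the neocortex, some of which hippocampal and subicular cells also use, the median was 1.06 in Anesthesia replicate 3 and between -0.34 and 0.35 in the other 7 mice. This list was added after the subunit values had been seen. Of its 6 genes, 4 were highest in Anesthesia replicate 3, among them Lamp5 with 828 normalized counts against 199 to 290 in the other mice. Scnn1a was highest in Control replicate 2. Fezf2 went the other way, at 214 in Anesthesia replicate 3 against a Control mean of 250. The 4 general neuron markers were all highest in that mouse, with a median of 0.33. Their part in the subunit values was not tested.

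**Figure D3:**
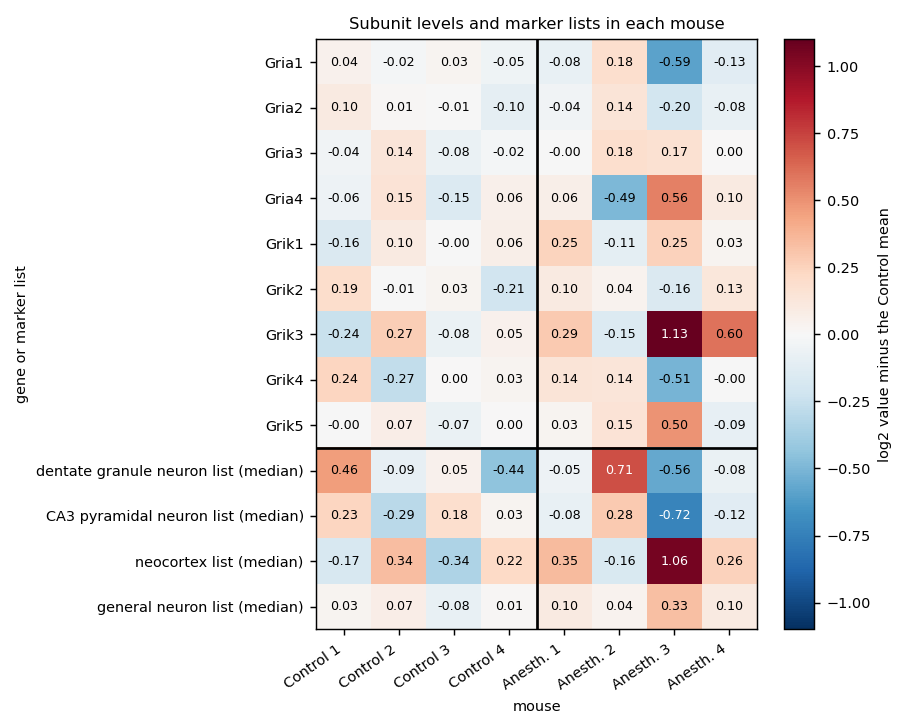
Log2 value minus the Control mean for each subunit gene and for the medians of 4 marker lists (rows) in each mouse (columns), on a color scale from blue (lower) to red (higher) with the value printed in each cell. In Anesthesia replicate 3 (Anesth. 3), Gria1 is at -0.59, Grik4 at -0.51, Gria4 at 0.56 and Grik3 at 1.13, and the dentate granule, CA3 and neocortex lists are at -0.56, -0.72 and 1.06.

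To compare the subunits with each other, normalized counts were divided by the length in kilobases of the longest protein-coding transcript of each gene in GENCODE M21. On this scale of level per kilobase the AMPA subunits had a median over the 8 mice of 3086 for Gria1 (2103 to 3594), 2613 for Gria2 (2316 to 2936), 808 for Gria3 (766 to 917) and 354 for Gria4 (241 to 499). The ranges of Gria1 and Gria2 overlapped, while Gria3 was below both and above Gria4 in every mouse. The order of Gria1 and Gria2 turns on the length used. The longest Gria2 transcript has 10371 bases and the other coding transcript 4026, and with the second longest transcript of each gene (the only one for Grik3 and Grik5), a choice added after the data were seen, Gria2 was above Gria1 in every mouse (5967 to 7562 against 2160 to 3692).

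For the kainate subunits the median level per kilobase was 340 for Grik5 (316 to 474) and 300 for Grik2 (253 to 336), with overlapping ranges. Below them stood Grik1 at 108 (93.5 to 124), Grik4 at 103 (72.0 to 121) and Grik3 at 78.8 (59.3 to 153), whose ranges overlapped each other but not those of Grik5 and Grik2. Which of them was lowest turns on the length used, since division by the exon union of each gene gave a median of 58.6 for Grik1 and 78.8 for Grik3. With the second longest transcripts Grik2 stood above Grik5 in every mouse, at 598 to 793 against 316 to 474.

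As a share of the AMPA subunit level per kilobase, Gria1 made up 45.4% ± 0.981 in Control mice and 42.8% ± 4.63 in Anesthesia mice (SD, n = 4 each). Gria2 made up 38.1% ± 0.992 and 38.7% ± 0.744, Gria3 11.6% ± 0.777 and 13.0% ± 1.77, and Gria4 4.89% ± 0.495 and 5.62% ± 2.24. All 4 shares overlapped between the groups. The share of Gria4 was 8.57% in Anesthesia replicate 3 and 3.13% in Anesthesia replicate 2, and between 4.41% and 5.52% in the other 6 mice. Without Anesthesia replicate 3 the Anesthesia mean of Gria4 was 4.64%, below the Control mean, and those of Gria1, Gria2 and Gria3 were 45.0%, 38.3% and 12.1%.

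Among the kainate subunits, Grik5 made up 37.0% ± 1.53 in Control mice and 37.8% ± 4.68 in Anesthesia mice, and Grik2 32.4% ± 2.83 and 30.5% ± 4.23 (SD, n = 4 each). Grik3 made up 7.81% ± 1.23 in Control mice and 10.2% ± 3.20 in Anesthesia mice. The highest share of Grik3 was 14.1% in Anesthesia replicate 3, followed by 11.2% in Anesthesia replicate 4, while Anesthesia replicate 2 had 6.69%. When Anesthesia replicate 3 was left out, the Anesthesia mean was 8.89% for Grik3, and for Grik5 (35.9%) and Grik2 (32.5%) it lay on the other side of the Control mean. The summed AMPA level per kilobase was 7.61 to 7.78 times the summed kainate level in the 4 Control mice, and 6.86, 8.11, 5.36 and 6.92 times in Anesthesia replicates 1 to 4. The Control values lay inside the Anesthesia range, and 3 of the 4 Anesthesia mice lay below all of them. The Anesthesia mean was 6.81, and 7.30 without Anesthesia replicate 3, against 7.67 in Control mice.

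**Figure D4:**
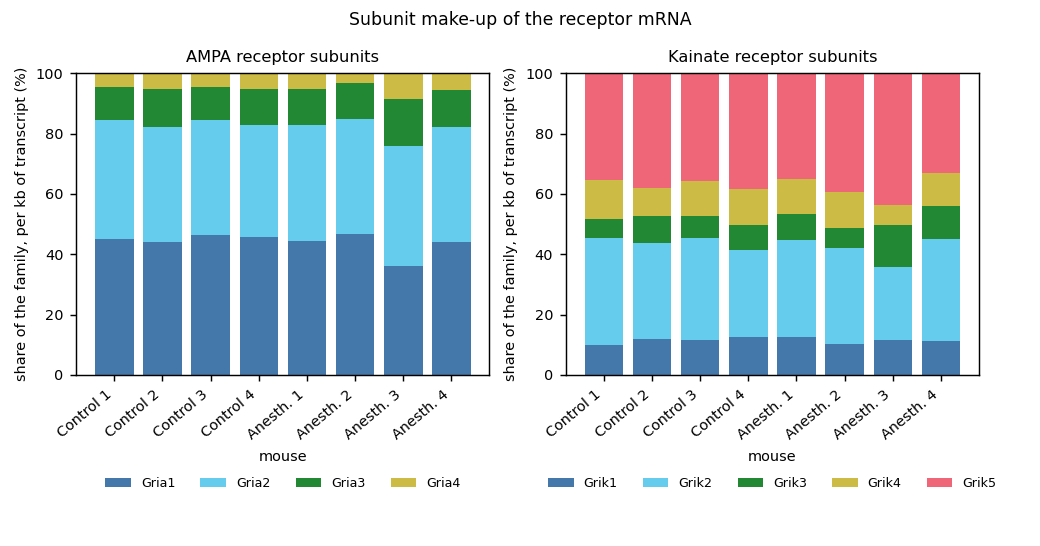
Share of each subunit (vertical axis, percent of the level per kilobase of its family) in each Control and Anesthesia mouse, for the AMPA subunits on the left and the kainate subunits on the right. Gria1 is at least 43.95% in 7 mice and 36.1% in Anesthesia replicate 3, where Grik5 reaches 43.6%.

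Ratios of subunits within a mouse do not depend on how libraries are scaled. They were not corrected for GC content or transcript length, which can act differently on each subunit. The log2 ratio of Gria1 to Gria2 normalized counts was -0.76 ± 0.19 in Anesthesia mice and -0.65 ± 0.05 in Control mice (SD, n = 4 each). It was -1.04 in Anesthesia replicate 3 and between -0.71 and -0.60 in the other 7 mice, and without that mouse the Anesthesia mean differed from the Control mean by -0.02. The log2 ratio of Gria4 to Gria2 was -3.80 ± 0.57 and -3.90 ± 0.17, and that of Gria3 to Gria2 was -2.58 ± 0.16 and -2.72 ± 0.12. The log2 ratio of Grik2 to Grik5 was 1.01 ± 0.38 in Anesthesia mice and 1.13 ± 0.18 in Control mice, with 0.48 in Anesthesia replicate 3. Anesthesia minus Control, the Gria4 to Gria2 ratio was 0.10 with Anesthesia replicate 3 and -0.12 without it, the Grik2 to Grik5 ratio -0.12 and 0.06, and the Gria3 to Gria2 ratio 0.13 and 0.05. The groups overlapped for all 4 ratios, which were described without a test.

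The genes whose values followed Gria3 and Grik3 most closely were found by the root mean square difference of their log2 values, each centered on its own mean, over the 8 mice. For Gria3, whose own deviation from its mean was 0.0955, the nearest of 18864 other genes were Larp1 (0.0304), an RNA-binding regulator of translation, the protocadherin Pcdh1 (0.0351) and Clip1 (0.0391), which binds microtubule plus ends. For Grik3, whose own deviation was 0.424, they were Grm4 (0.097), a metabotropic glutamate receptor gene, the kinase gene Map3k9 (0.0974) and Gm36931 (0.105). Grm4 had 178, 118, 313 and 238 normalized counts in the Anesthesia mice and 108, 158, 142 and 140 in the Control mice. Its highest value, in Anesthesia replicate 3, follows from its choice by likeness to Grik3 over the same mice. None of these 6 genes had an adjusted p under 0.05 in limma.

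The proteins that accompany these receptors were followed in 5 lists with 41 genes, all of them tested. In the limma comparison 0 of 41 had an adjusted p under 0.05, and the smallest was 0.578. An unadjusted p under 0.05 was found for 5 of 41 (12.2%), all higher in the Anesthesia group. Of all genes tested 8.02% had such a p in either direction, and 4.75% had it and were higher. After the correction for GC content and transcript length the count was 1 of 41 (2.44%, Grip2), beside 6.19% in either direction (595 of 18865 genes higher). Without Anesthesia replicate 3 it was 3 of 41 (7.32%), all higher, beside 5.64% in either direction (626 of 18828 genes higher). Without Anesthesia replicate 1 it was 8 of 41 (19.5%), all higher, beside 10.7% in either direction (1062 of 18863 genes higher). Without Anesthesia replicate 2 it was 10 of 41 (24.4%), 7 of them higher, beside 9.32% in either direction (990 of 18859 higher). With choroid plexus genes as covariate it was 4 of 41 (9.76%), 3 higher, beside 4.54% in either direction (520 of 18865 higher). The groups did not overlap for 2 of 41 (4.88%), near the 5.04% of all genes. The median log2 fold change of the 41 was 0.10, with 29 above 0, and after that correction 0.03, with 26 above 0. General neuron markers stood on the same side, with 4 of 4 higher in Anesthesia mice, a median of 0.15 and 2 whose groups did not overlap (Rbfox3 and Slc17a7, with unadjusted p of 0.00404 and 0.0309 in limma). The 6 neocortex genes were all higher, with a median of 0.38 and none with an unadjusted p under 0.05. Other neuronal lists did not all go this way. The median was 0.11 in the CA1 list (3 of 5 higher) and -0.00016 in the dentate granule list (2 of 5 higher). It was -0.18 in the CA3 list (1 of 4 higher) and -0.04 in the GABAergic interneuron list (2 of 8 higher). The part of these lists in the values of the partner genes was not tested.

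Among 18 AMPA receptor auxiliary subunits, which set gating and synaptic delivery, 12 were higher in the Anesthesia group, and 1 had an unadjusted p under 0.05. This was Shisa7, with 520, 905, 728 and 650 normalized counts in the Anesthesia mice and 550, 566, 558 and 510 in the Control mice. All Control mice lay below Anesthesia replicates 2, 3 and 4, and Anesthesia replicate 1 lay among them. Its log2 fold change was 0.33 ± 0.14 (SE, limma adjusted p = 0.622), and it was 0.22 after the correction for GC content and transcript length and 0.20 without Anesthesia replicate 2. Cacng4, a TARP also known from glia, had the next smallest p. It was between 79.0 and 109 in the Anesthesia group and at 190, 103, 200 and 82.4 in the Control mice, a log2 fold change of -0.50 ± 0.27 (SE, limma adjusted p = 0.66). Control replicates 1 and 3 carry that difference, since the other Control mice lay within the Anesthesia range.

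Of 14 genes for AMPA receptor anchoring and trafficking, 10 were higher in the Anesthesia group and 3 had an unadjusted p under 0.05, all higher. Grip2, a scaffold that binds the tails of Gria2 and Gria3, had 112, 103, 160 and 139 normalized counts in the Anesthesia mice and 86.2, 79.0, 98.2 and 79.9 in the Control mice. The lowest Anesthesia value was above the highest Control value, with a log2 fold change of 0.56 ± 0.16 (SE, interval 0.20 to 0.92). Its unadjusted p was 0.00568 and its adjusted p 0.578 in limma, and 184 genes ranked before it. Leaving out single mice gave 0.45 to 0.66, and it was 0.44 after the correction for GC content and transcript length. Epb41l1, which links Gria1 to the cytoskeleton, had a log2 fold change of 0.20 ± 0.06 (SE, limma adjusted p = 0.62), and 0.09 after that correction. Nptxr, the neuronal pentraxin receptor that helps to cluster AMPA receptors, was at 0.21 (SE 0.07, limma adjusted p = 0.62) and at 0.08 after it. Nptxr was named after its value had been seen.

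Neto1 and Neto2, the auxiliary subunits of kainate receptors, had log2 fold changes of 0.06 (interval -0.12 to 0.25) and -0.04 (interval -0.19 to 0.11), with adjusted p-values of 0.836 and 0.873 from limma. C1ql2 and C1ql3, secreted proteins of dentate granule neurons that recruit kainate receptors to mossy fiber synapses, varied widely within both groups. C1ql2 was between 251 and 593 normalized counts in Anesthesia mice and between 241 and 599 in Control mice, and Anesthesia replicate 2 and Control replicate 1, the highest mice, also had the highest dentate granule medians. C1ql3 was between 1397 and 1979 in Anesthesia mice and between 1274 and 2116 in Control mice. Their log2 fold changes were 0.10 (SE 0.29) and 0.02 (SE 0.15), with adjusted p-values of 0.936 and 0.981 from limma.

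Adarb1, which encodes the enzyme that edits the Q/R codon of Gria2, Grik1 and Grik2, had 3037, 3195, 3834 and 3170 normalized counts in the Anesthesia mice and 3215, 2821, 3268 and 2985 in the Control mice. The groups overlapped, and only Anesthesia replicate 3 stood above all Control mice. The log2 fold change was 0.10 ± 0.08 (SE, interval -0.08 to 0.28, limma adjusted p = 0.739), 0.03 without Anesthesia replicate 3, and 0.02 after the correction for GC content and transcript length. Adar, the related enzyme found in most cells, was at 0.10 (limma adjusted p = 0.726), 0.06 and 0.02 in the same order, and Adarb2, a brain relative with no known editing activity, at 0.03 (limma adjusted p = 0.957). The delta receptor gene Grid1, an orphan relative of the ionotropic glutamate receptors, had 1211, 1204, 1426 and 1230 normalized counts in the Anesthesia mice and 1112, 1169, 1007 and 1151 in the Control mice. Its groups did not overlap, and its log2 fold change was 0.19 ± 0.08 (SE, limma adjusted p = 0.62). The log2 fold change was 0.13 without Anesthesia replicate 3 and 0.16 after the correction for GC content and transcript length. Its unadjusted p in limma was 0.0311 with all mice, 0.079 without that mouse and 0.0572 after the correction. With choroid plexus genes as covariate it was 0.0991.

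**Figure D5:**
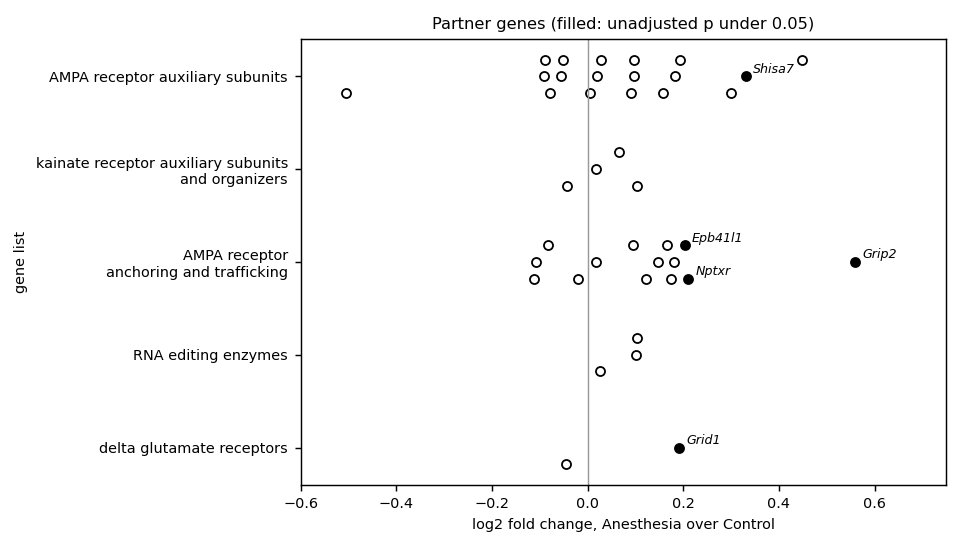
Log2 fold change (horizontal axis, Anesthesia over Control) of the 41 partner genes, a point for each gene in the row of its list, shifted vertically so that points do not cover each other. Filled points are the 5 genes with an unadjusted p under 0.05 in limma, with Grip2 farthest right at 0.56, and the adjusted p was 0.578 or more for all 41.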

How the data were processed

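Hippocampal RNA of 4 Anesthesia and 4 Control mice was analysed, with 1 column per mouse matched by group letter and replicate number. Per the labels and methods, the authors quantified transcripts with Salmon 1.1.0 (GRCm38, corrected for GC bias), imported gene-level estimates through tximport and divided them by size factors from DESeq2 1.30.1. What was deposited is thus a normalized signal. Read counts could not be recovered, since only 51.6% to 73.3% of low values came within 0.1 of whole reads, so that no count model was fitted. The paper names a stranded total RNA kit and the labels another TruSeq kit. Which annotation release and filter were used is not given in the sources used here.

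Values were compared with limma 3.58.1 (R 4.3.3) on log2(value + 1), allowing a trend of variance with level, for the 18865 of 20802 genes whose mean was at least 10. This scale understates the change of low genes. Symbols, positions and lengths came from GENCODE M21, which held 20784 identifiers and lacked 18. The scripts were tested on simulated data. Alternatives were upper quartile scaling, library size alone, limma voom, other filters, a smaller pseudocount (0.1), a block for replicate number, loess correction for GC content and transcript length (also with the block), the choroid plexus genes as covariate, and leaving out every mouse once. Counts of partner genes under these settings, and shares without Anesthesia replicate 3, were later additions, made with the data known.

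The subunits and gene lists were chosen with earlier results of these data known. Nptxr and the neocortex genes were added after values were seen. Beside the 9 subunits, the rule named the 2 genes with the smallest p in each partner list of 10 or more, every gene of shorter lists, and the 3 genes nearest in pattern to the AMPA and the kainate subunit with the smallest p. Some genes of these lists were counted but are not reported here by name. In the other marker lists the median log2 fold change was -0.06 over astrocyte, -0.06 over oligodendrocyte and 0.00016 over oligodendrocyte precursor genes. It was 0.09 over microglia, 0.04 over endothelium, -0.10 over thalamus, -0.22 over blood and -1.95 over choroid plexus genes. For GABAergic interneuron and CA1 genes it was -0.04 and 0.11. These lists had 0 genes past the adjusted threshold, as had all genes tested.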

Additional observations from a re-analysis of the deposited data

Results flagged for a closer look

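A mouse was flagged where its gap to the nearest of the other 3 of its group, divided by the range of the group, was above Dixon's 95% critical value for 4 samples. The subunits, the named partner genes, the 4 ratios and the gene lists gave 94 groups of 4 mice, and 5 of these groups were flagged, where chance at 1 in 20 gives about 4.7.

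Anesthesia replicate 3 was flagged for the log2 ratio of Gria3 to Gria2, at -2.35 against -2.68 to -2.64 in the other Anesthesia mice (gap over range 0.87), and for Grid1, with 1426 normalized counts against 1204 to 1230 (0.879). Anesthesia replicate 2 was flagged for the median of the 4 AMPA subunits relative to the Control mean, at 0.16 on the log2 scale against -0.04 to -0.01 (0.881). In the Control group, replicate 2 had 1588 normalized counts of Neto2 against 1485 to 1499 (0.857), and replicate 4 had a median of 0.17 in the microglia list against -0.09 to -0.06 (0.878). No single subunit gene was flagged in either group.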

How the results depend on the processing

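The number of genes with an adjusted p under 0.05 was 0 under every alternative except with 1 mouse left out, where it ranged from 0 to 2 (2 without Control replicate 1, no subunit among them). The paper, with the count model of DESeq2, did report genes past this threshold. That model was not among the alternatives. The number of subunits with an unadjusted p under 0.05 was 0 throughout, and 0 to 2 with 1 mouse left out: Gria1 and Grik3 without Anesthesia replicate 2, and Grik3 without Control replicate 2. The number with groups that did not overlap was 0 under other scaling and under the correction for GC content and transcript length, and 0 to 2 with 1 mouse left out. The lowest adjusted p of any subunit under any alternative was 0.488.

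Directions of the subunits held in 88 of 90 values from the other alternatives. Grik2 went to -0.0101 after correction for GC content and transcript length, both with and without the replicate block. With 1 mouse left out, Gria2 ranged from -0.11 to 0.0088, Gria4 from -0.11 to 0.24, Grik2 from -0.0432 to 0.092 and Grik4 from -0.15 to 0.0922. Among partner genes, the choroid plexus covariate turned C1ql2 (-0.0208), C1ql3 (-0.0749) and Adarb2 (-0.0506). With 1 mouse left out C1ql2 ranged from -0.11 to 0.33, C1ql3 from -0.10 to 0.14 and Adarb2 from -0.0419 to 0.13. The cause was not tested. Leaving out a mouse moved the ratios by less than their SD.

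Control shares depended on transcript length. With the exon union Gria1 was 53.8%, Gria2 32.9%, Gria3 7.90%, Grik1 8.32%, Grik3 10.4% and Grik4 14.9%. With the second longest transcript, chosen after the data were seen, Gria1 was 27.5%, Gria2 58.0%, Gria4 2.93%, Grik1 7.77%, Grik2 50.0%, Grik3 5.13% and Grik5 24.3%.

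Mice with the same replicate number did not deviate together, since their deviations over all genes tested correlated at -0.242, -0.109, -0.182 and 0.019. These values cannot exclude a pairing by number, because they also take in differences in tissue make-up between libraries. A replicate block left 0 genes past the adjusted threshold and 1084 in place of 1513 with an unadjusted p under 0.05, and it changed no adjusted call. Grid1 had an unadjusted p of 0.077 under the block, and 4 of the 41 partner genes in place of 5 stayed under 0.05. Block and correction together left 860, and the choroid plexus covariate 857. The share higher in the Anesthesia group was 59.3% of the 1513 genes, 63.0% of the 1084, 50.7% of the 860 and 60.7% of the 857. It was 51.2% with library size alone and 51.0% after the correction for GC content and transcript length without the block.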
